A study of Bos taurus with 96 samples.

Results

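The muscle libraries of early lactation (EL) and mid lactation (ML) were compared within cow, as ML minus EL. They are 32 of the 96 libraries of the series, 16 from each time-point, and come from 16 Holstein cows that were each sampled at both. The study compared cows of good genetic merit for calving interval (Fert+, 8 cows) with cows of poor merit (Fert-, 8 cows), in liver and in muscle, from before calving to established lactation. RNA was sequenced from biopsies of the semitendinosus, a fast muscle of the hind limb, taken as punches under local anaesthetic and frozen at once. The cows were in their first or second parity, were kept as a single herd and were not bred in that lactation. EL was day 1 after calving and ML was day 147, and the third time-point, late pregnancy (LP), was day -18 relative to calving. Both genotypes were pooled here, with the cow as the pairing unit, so each replicate is a separate animal. Days since calving, the order of the biopsies and calendar date ran together in every cow and cannot be told apart.

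Skeletal muscle is the main store of protein in the body and one of its largest users of glucose. Around calving, when feed intake lags behind the demands of milk secretion, dairy cows draw on body fat and on muscle protein, and insulin-responsive tissues take up less glucose so that more is left for the udder. In muscle, the ubiquitin ligases TRIM63 and FBXO32 mark proteins for the proteasome, PDK4 holds back the oxidation of pyruvate, and fast and slow fibres use different isoforms of the contractile proteins.

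The libraries held between 15463987 and 19429387 gene counts at EL (median 17299764) and between 15795921 and 22018740 at ML (median 18258604). The total was higher at ML in 11 of 16 cows, a difference that did not pass an exact sign-flip permutation test over cows (two-sided, p = 0.079, Benjamini-Hochberg adjusted p = 0.119). The 10 most abundant genes of a library took from 16.7% to 28.5% of its counts at EL and from 29.8% to 33.4% at ML, with no overlap and a rise in all 16 cows (same permutation test, p = 3.05e-05, the smallest the 65536 sign arrangements can give, adjusted p = 9.16e-05). Mitochondrially encoded genes took from 5.76% to 20.4% of the counts at EL and from 9.78% to 16.9% at ML, lower at ML in 11 of 16 cows (permutation test, p = 0.27). The muscle label held: the 12 fibre markers summed to between 46197 and 254639 CPM (counts scaled to library size by the trimmed mean of M-values, TMM) at EL and to between 241766 and 321156 at ML. The TMM scaling factors differed between the time-points, with a mean of 1.17 at EL and 0.866 at ML, and every direction below is relative to the bulk of the genes.

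The first principal component of the 32 libraries held 43.4% of the variance and separated the time-points, from -64.8 to -7.01 at EL and from 9.37 to 33.8 at ML. The second component held 8.80%. Along it 4 EL libraries, of the Fert+ cows numbered 430, 756, 782 and 3847, lay between 24.2 and 36.6, whereas the other EL libraries lay between -22.7 and 5.67 and the ML libraries between -3.22 and 5.20. Without these 4 cows 3519 genes were up-regulated and 3397 down-regulated of 12030 tested, and 12 of the genes named below lost their call (ATF4, CALM, CD36, CD5L, CISH, CMYA1, LOXL4, LTF, MICU3, MUSK, PFKFB4 and PIK3R1). Spread between cows was larger at EL for 83.2% of the tested genes, with a median SD of log2 CPM of 0.301 at EL and 0.214 at ML.

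**Figure D1:**
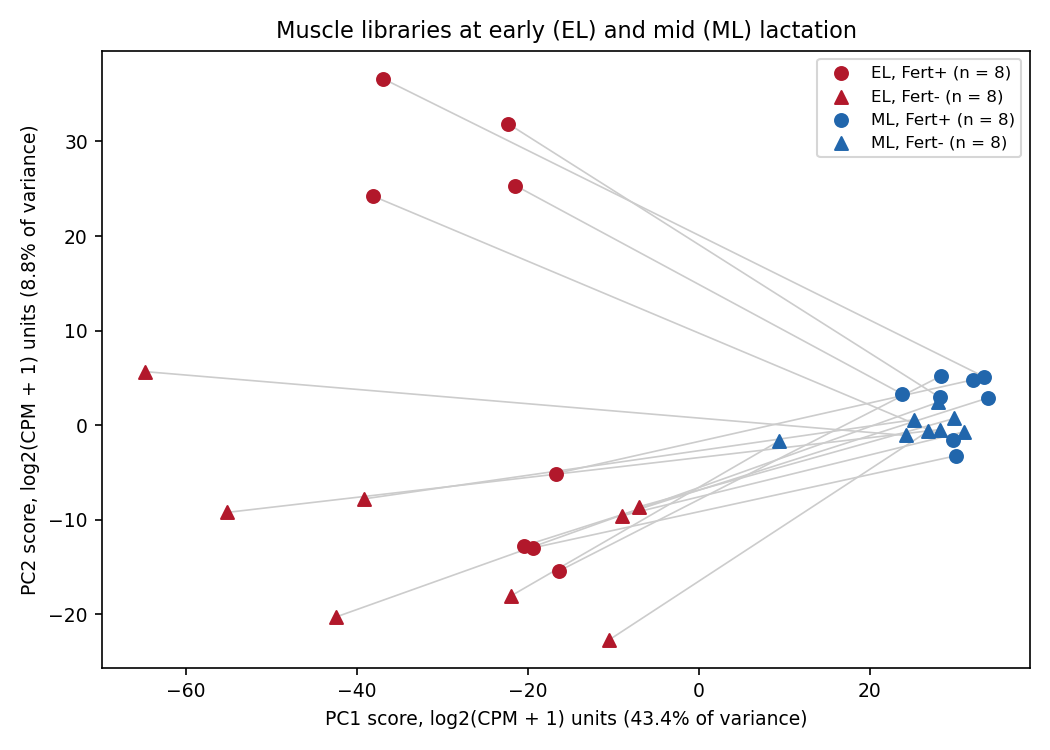
Principal components of the 32 muscle libraries from log2 CPM, with component 1 on the x axis and component 2 on the y axis. Each point is a library, coloured by time-point, and the 16 ML libraries sit to the right of all 16 EL libraries while 4 EL libraries sit above 24 on component 2.

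Of 12029 genes tested with edgeR (quasi-likelihood test, cow and time-point as terms, adjusted p below 0.05), 7522 differed between EL and ML, which is 62.5% of those tested. Both directions were near balance, with 3786 genes (31.5%) up-regulated and 3736 (31.1%) down-regulated at ML. Most changes were small: 918 exceeded a log2 fold change of 1 in size (549 up, 369 down) and 142 exceeded 2 (79 up, 63 down). The range of CPM over cows at EL did not overlap that at ML for 309 genes, 2.57% of those tested, of which 136 were up-regulated and 173 down-regulated. The balance of directions depended on the scaling. With library totals alone 1157 genes were called up and 7412 down, the median log2 fold change over all genes being -0.41 instead of 0.011, and with upper-quartile factors 4749 were called up and 2861 down. With library totals alone 23 of the genes named below lost their call with the sign unchanged, COX1, MYH7, TTN and MB among them. The called genes LPL and MFN2 turned sign in that fit. Of 174 named genes that were called, 161 were tested and kept the call in all 16 fits without 1 cow. KERA and LTF kept it wherever they were tested, but were too low to be tested in 2 of these fits each (without cows 982 and 1000 for KERA, 419 and 426 for LTF). The calls of the other 11 (ACADVL, ATF4, CD36, CD5L, CISH, CMYA1, LPL, MUSK, MX1, PIK3R1 and S100A12) were lost without 1 or more of the single cows. A gene symbol was known for 1562 of the tested genes, among which 699 were up-regulated (44.8%) and 368 down-regulated (23.6%), with a median of 0.20. Those symbols belong to genes that the study singled out between genotypes or to its most abundant genes, so the named genes are not a random draw, and each list below is to be read against these percentages.

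Among genes with a symbol that moved 1 way in at least 15 of 16 cows, the largest fall was that of a carrier of amino acids. SLC7A8, an exchanger of large neutral amino acids, lay between 69.4 and 469.8 CPM at EL (median 283) and between 3.34 and 61.2 CPM at ML (median 5.79). The 16 EL values were all above the 16 ML values, and the gene was 36.9-fold lower at ML (log2 fold change -5.21 ± 0.37, adjusted p = 1.03e-08; ± gives the standard error of the fit throughout). SLC43A2, which carries branched-chain amino acids, phenylalanine and methionine across the plasma membrane, ran from 145 through a median of 285 to 421 CPM at EL and from 12.9 through 22 to 171 CPM at ML. Its highest ML cow overlapped the lowest EL cow, and it fell in 16 of 16 cows (log2 fold change -3.42 ± 0.22, adjusted p = 2.94e-09). SLC3A2, the heavy chain with which SLC7A8 pairs, was also down-regulated (-1.14 ± 0.20, adjusted p = 7.34e-05). Of the 12 tested genes of amino acid transport and breakdown 5 rose and 4 fell, the rises including HIBADH (0.84 ± 0.084) and ALDH6A1 (0.53 ± 0.086) of valine breakdown. With library totals alone 1 rose and 7 fell.

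GLUL, the glutamine synthetase, ran from 592 through a median of 2327 to 8189 CPM at EL and from 222 through 365 to 1066 CPM at ML. All 16 cows were lower at ML although the ranges overlapped (log2 fold change -2.83 ± 0.33, adjusted p = 1.01e-06). Genes of amino acid synthesis went the other way: PSPH (1.80 ± 0.24) and PHGDH (1.76 ± 0.33), enzymes of serine synthesis, PSAT1 (1.55 ± 0.23) of the same route and ASNS (1.06 ± 0.28), the asparagine synthetase, were all up-regulated. The transcription factor ATF4, which controls many of these enzymes, itself fell by a little (-0.23 ± 0.098), and the stress-responsive cofactor NUPR1 fell further (-1.22 ± 0.23). In that list 9 of 17 tested genes rose and 4 fell (median 0.16), a balance that turned to 3 and 8 with library totals alone.

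Genes of protein breakdown were higher on the day after calving. TRIM63, a ubiquitin ligase of the sarcomere, lay between 171 and 3388 CPM at EL (median 1006) and between 51 and 175 CPM at ML (median 78.1). Only the extremes overlapped, every cow was lower at ML, and the fall was 11.7-fold (log2 fold change -3.55 ± 0.28, adjusted p = 1.75e-08). FBXO32, the other muscle-specific ligase of atrophy, ran from 70.1 through a median of 444 to 993 CPM at EL and from 43.1 through 74 to 207 CPM at ML, and 15 of 16 cows were lower at ML (log2 fold change -2.61 ± 0.24, adjusted p = 7.83e-08). FOXO1, a transcription factor that switches on both ligases, ran from 30.6 through a median of 68.7 to 150.2 CPM at EL and from 4.69 through 15.6 to 71.8 CPM at ML. It fell with them (log2 fold change -2.44 ± 0.25, adjusted p = 2.57e-07). GABARAPL1, which builds autophagosomes, separated the time-points completely, between 67.4 and 367 CPM at EL (median 148) and between 20.5 and 49.1 CPM at ML (median 31.3) (log2 fold change -2.33 ± 0.20, adjusted p = 3.19e-08). The deubiquitinase USP2 (-0.85 ± 0.17) and the mitophagy receptor BNIP3 (-1.24 ± 0.17) were down-regulated as well. Of 17 tested genes of this list 13 fell and 1 rose, with a median of -0.72. The list holds ubiquitin ligases, FOXO targets and autophagy genes, and not every member is part of the breakdown machinery. That holds for the gene that rose, MSTN, the secreted inhibitor of muscle growth. It also holds for EIF4EBP1 (-0.94) and DDIT4 (-0.67), which were among those that fell.

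Proteasome subunits fell by smaller amounts but nearly without exception: 13 of 14 tested subunits were down-regulated and 0 up-regulated, with a median of -0.55 and a range from -1.02 to 0.094. The core subunit PSMA7 (-1.02 ± 0.11) and the regulatory subunits PSMD7 (-0.94 ± 0.084), PSMD2 (-0.85 ± 0.11) and PSMD4 (-0.84 ± 0.089) led. NFE2L1, a transcription factor that raises proteasome genes when the proteasome is overloaded, was among the 5 named genes with the smallest adjusted p. Its levels lay between 1362 and 2655 CPM at EL (median 2030.2) and between 516 and 949 CPM at ML (median 660.2), without overlap (log2 fold change -1.57 ± 0.092, adjusted p = 2.52e-10). ZFAND5, a zinc finger protein that binds ubiquitin and the proteasome, was another, between 699 and 3037 CPM at EL (median 1823) and between 290.2 and 969 CPM at ML (median 480.4) (log2 fold change -1.86 ± 0.12, adjusted p = 7.01e-10). The remaining 3 were the calcium-binding copine CPNE2 (-2.08 ± 0.12, adjusted p = 1.55e-10), EMC3, a subunit of the complex that inserts proteins into the endoplasmic reticulum membrane (-1.27 ± 0.082, adjusted p = 8.22e-10), and ATP1A4, a catalytic subunit of the sodium pump, which rose (3.46 ± 0.17, adjusted p = 2.96e-11) from a low level, between 0.15 and 5.08 CPM at EL (median 0.763) and between 2.76 and 23.9 CPM at ML (median 9.59).

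**Figure D2:**
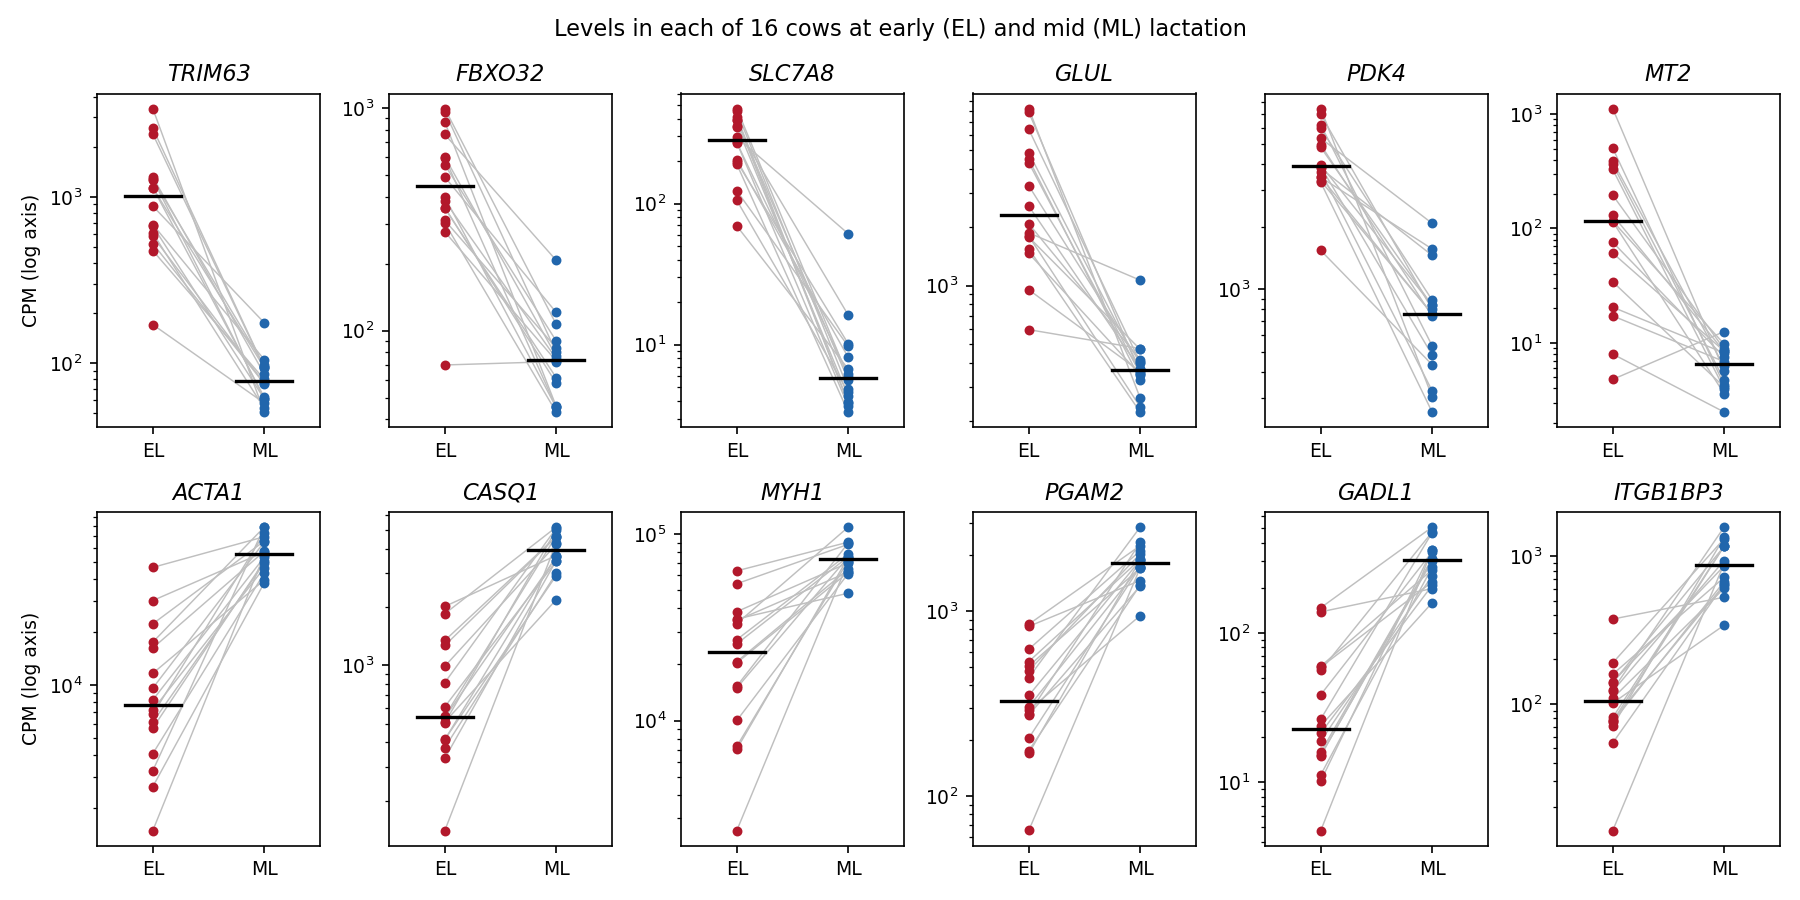
Levels of named genes in each of the 16 cows at EL and ML, in CPM on a log axis, with a grey line joining the values of a cow and a black bar at the median of each time-point. The lines of TRIM63 run down in all 16 cows and those of ACTA1 run up in all 16, and the EL values of both spread over a wider range than the ML values.

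Metallothioneins and enzymes of haem and thiol defence showed some of the steepest falls. MT2, a zinc-binding metallothionein, ran from 4.79 through a median of 115 to 1117 CPM at EL and from 2.48 through 6.53 to 12.5 CPM at ML, a spread of EL values far wider than that at ML (log2 fold change -3.98 ± 0.65, adjusted p = 4.67e-05). MT1A, a second metallothionein, was close to 0 at ML, with a median of 7.66 CPM at EL and 0.178 CPM at ML (log2 fold change -5.82 ± 0.74, adjusted p = 3.64e-06), while MT3 was up-regulated (1.42 ± 0.25). HMOX1, which degrades haem, lay between 69.6 and 257 CPM at EL (median 156) and between 9.03 and 59.3 CPM at ML (median 16.3), without overlap (log2 fold change -3.22 ± 0.22, adjusted p = 3.51e-09). SRXN1, which repairs oxidised peroxiredoxins, ran from 10.8 through a median of 29.7 to 74.7 CPM at EL and from 1.83 through 3.95 to 18.7 CPM at ML (log2 fold change -2.76 ± 0.29, adjusted p = 3.86e-07). Falls were not general to antioxidant genes: the mitochondrial peroxiredoxin PRDX3 (0.75 ± 0.10) and the glutathione transferases MGST1 (0.93 ± 0.13) and GSTM2 (0.84 ± 0.24) rose. Of 27 tested members 9 rose and 12 fell (median -0.056). In the EL libraries that stood apart MT2 lay between 131 and 1117 CPM, and in the other EL libraries between 4.79 and 387.

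Genes that respond to glucocorticoids shared several of these members. FKBP5, a co-chaperone induced by the glucocorticoid receptor, ran from 228 through a median of 509.5 to 1757 CPM at EL and from 117 through 158 to 391 CPM at ML. All cows were lower at ML (log2 fold change -1.82 ± 0.28, adjusted p = 2.41e-05). Of 12 tested genes of the list 7 fell and 0 rose, with a median of -0.63. MT1A, MT2, GLUL, FOXO1 and the regulatory subunit of phosphoinositide 3-kinase PIK3R1 (-0.59 ± 0.23) were among those that fell, and PER1, a clock gene with glucocorticoid response elements, did not pass the test (log2 fold change -0.29 ± 0.22, adjusted p = 0.256). ARID5B, a DNA-binding cofactor outside the list, ran from 13 through a median of 82.7 to 549 CPM at EL and from 6.09 through 9.37 to 23.6 CPM at ML (log2 fold change -3.08 ± 0.39, adjusted p = 3.17e-06).

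Immediate early genes were mixed, with 7 of 19 down-regulated, 2 up-regulated and 10 not called. FOSL2, a partner in the transcription factor AP-1, lay between 19.6 and 135 CPM at EL (median 55.9) and between 3.86 and 15.7 CPM at ML (median 6.69), without overlap (log2 fold change -2.98 ± 0.25, adjusted p = 3.17e-08). SIK1, a kinase of cyclic AMP signalling (-2.19 ± 0.35), the growth regulator MYC (-1.83 ± 0.44) and the nuclear factor CSRNP1 (-1.78 ± 0.35) fell too. The orphan nuclear receptors NR4A1 (1.35 ± 0.21) and NR4A2 (0.95 ± 0.32) rose. FOS, which is outside the naming rule and is given for the libraries that stood apart, lay between 45.4 and 166 CPM in the 4 EL libraries apart, between 1.06 and 74.9 in the other EL libraries and between 4.30 and 305 at ML, and did not differ by the test (adjusted p = 0.352). Without the cow block 3 members rose and 10 fell. GREB1, best known as an oestrogen-responsive gene of breast cells, ran from 42 through a median of 89.6 to 257 CPM at EL and from 4.76 through 7.71 to 42.3 CPM at ML (log2 fold change -3.35 ± 0.32, adjusted p = 1.64e-07). Of 3 tested genes of steroid and thyroid hormone action 2 fell, GREB1 and the dehydrogenase HSD17B4 (-0.18 ± 0.060), and 0 rose.

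Of the genes that govern the oxidation of pyruvate, the kinase PDK4, which inactivates pyruvate dehydrogenase, changed by the most. It ran from 1538 through a median of 3935 to 7431 CPM at EL and from 256 through 761 to 2081 CPM at ML. It fell in all 16 cows, 6.08-fold (log2 fold change -2.60 ± 0.23, adjusted p = 4.53e-08). The subunits of the complex itself rose, PDHA1 by 0.62 ± 0.12, PDHB by 0.48 ± 0.074 and DLD by 0.68 ± 0.082, while the phosphatase PDP2 did not pass the test (log2 fold change -0.54 ± 0.25, adjusted p = 0.0656), although it was called lower in DESeq2, in limma-voom, with library totals alone, without the cow block and without cow 982, 1000 or 3434. Of 7 members, pyruvate carriers included, 5 rose and 1 fell, and with library totals alone 2 rose and 4 fell. LPIN1, a phosphatidate phosphatase that also acts as a coactivator of genes of fat oxidation, ran from 171 through a median of 434 to 1126 CPM at EL and from 44.2 through 79.6 to 227 CPM at ML (log2 fold change -2.49 ± 0.21, adjusted p = 2.44e-08). UCP3, a mitochondrial carrier that rises when muscle burns fat, ran from 176 through a median of 639 to 1291 CPM at EL and from 104 through 162 to 542 CPM at ML (log2 fold change -1.74 ± 0.16, adjusted p = 3.21e-08).

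Genes of fatty acid use did not move as a block. Of 13 tested genes of mitochondrial fatty acid oxidation 6 rose and 4 fell (median 0.092), and with library totals alone 1 rose and 7 fell. CPT1B, the gate through which long-chain fatty acids enter the mitochondrion (-0.49 ± 0.070), ECH1 (-0.65 ± 0.13) and ACADVL (-0.17 ± 0.070) of the oxidation spiral were down-regulated, and ACAT1 (0.85 ± 0.10), ECI1 (0.60 ± 0.078) and the electron carrier ETFA (0.56 ± 0.088) were up-regulated. Of 9 tested genes of uptake and activation 4 fell, among them the transporter SLC27A6 (-1.48 ± 0.22), the cytosolic binding protein FABP3 (-0.89 ± 0.18) and the translocase CD36 (-0.22 ± 0.087), and 1 rose, the lipoprotein lipase LPL (0.38 ± 0.14), whose direction turned with library totals alone. Without the 4 cows apart on the second component 2 rose and 2 fell, and over the 16 fits without 1 cow 0 to 3 rose. Of 5 tested genes around the coactivator PGC-1, its own gene PPARGC1A did not pass (log2 fold change 0.20 ± 0.32, adjusted p = 0.599), RXRG, a retinoid receptor (1.68 ± 0.22), and the mitofusin MFN2 (0.29 ± 0.099) rose and LPIN1 fell, MFN2 with the opposite sign with library totals alone.

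Glycolytic enzymes were higher at ML at almost every step from hexose phosphate to lactate. LDHA, which makes lactate from pyruvate, ran from 70.8 through a median of 387 to 1117 CPM at EL and from 897 through 1753 to 2409 CPM at ML. It rose in all 16 cows (log2 fold change 2.05 ± 0.24, adjusted p = 1.09e-06). PGAM2, the muscle phosphoglycerate mutase, lay between 65.2 and 849 CPM at EL (median 327) and between 944 and 2841 CPM at ML (median 1810.2), without overlap (log2 fold change 2.40 ± 0.23, adjusted p = 8.99e-08). PGK1 (1.78 ± 0.16), ENO3 (1.6 ± 0.22), PKM2 (1.35 ± 0.22), G3PDH (1.06 ± 0.13), ALDOA (1.02 ± 0.15) and PFKM (0.71 ± 0.14) rose between them, as did GPD1 (2.17 ± 0.25), which passes electrons from glycolysis to glycerol phosphate. SLC2A4, the insulin-dependent glucose transporter, ran from 17.1 through a median of 57.5 to 219.6 CPM at EL and from 98.7 through 157 to 189 CPM at ML. The ranges overlapped widely and 12 of 16 cows were higher at ML (log2 fold change 1.19 ± 0.24, adjusted p = 3.89e-04). In all 14 of 19 members rose and 2 fell, with a median of 1.06. Both that fell, PFKFB3 and PFKFB4 (-0.60 ± 0.17), make fructose 2,6-bisphosphate, the signal that speeds phosphofructokinase. PFKFB3 ran from 429 through a median of 1755 to 3028 CPM at EL and from 23.7 through 208 to 1286 CPM at ML and fell in 15 of 16 cows (log2 fold change -2.97 ± 0.46, adjusted p = 2.63e-05).

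Of 12 tested genes of glycogen metabolism 9 rose and 1 fell, and with library totals alone 5 rose and 2 fell. PPP1R3C, which brings a phosphatase to glycogen and favours its synthesis, ran from 24 through a median of 55.6 to 181 CPM at EL and from 117 through 314 to 419.8 CPM at ML (log2 fold change 2.40 ± 0.21, adjusted p = 4.21e-08). PGM1 (1.41 ± 0.15) and the phosphorylase PYGM (1.05 ± 0.12) rose, and UGP2, which makes the UDP-glucose used for glycogen, fell without overlap, between 446 and 1226 CPM at EL (median 655) and between 242 and 420.5 CPM at ML (median 344) (log2 fold change -0.96 ± 0.10, adjusted p = 2.13e-07). The enzymes that buffer ATP rose: CKM, the muscle creatine kinase (1.34 ± 0.13), the adenylate kinase AK1 (1.36 ± 0.16), the AMP deaminase AMPD1 (2.12 ± 0.33), and both steps of creatine synthesis, GATM (2.23 ± 0.32) and GAMT (2.14 ± 0.19). Of 11 tested members 8 rose and 1 fell (median 1.27).

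Some of the largest rises belonged to less familiar muscle enzymes. GADL1, a decarboxylase of acidic amino acids, lay between 4.77 and 147 CPM at EL (median 22.7) and between 159 and 508 CPM at ML (median 307), without overlap (log2 fold change 3.46 ± 0.37, adjusted p = 6.02e-07). CARNS1, which joins beta-alanine to histidine to make the muscle buffer carnosine, lay between 1.62 and 20.6 CPM at EL (median 12) and between 27.7 and 62.7 CPM at ML (median 48), also without overlap (log2 fold change 2.39 ± 0.31, adjusted p = 4.07e-06). ITGB1BP3, a nicotinamide riboside kinase of muscle, ran from 13.8 through a median of 105 to 376 CPM at EL and from 341 through 876 to 1577 CPM at ML (log2 fold change 3.1 ± 0.30, adjusted p = 1.49e-07). DHDH, a dihydrodiol dehydrogenase (2.46 ± 0.19), and the cell-surface glypican GPC3 (2.36 ± 0.18) completed the rises by this rule outside the groups described here.

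Nuclear genes of the respiratory chain rose together. All 33 of 33 tested complex I subunits, all 21 of 21 of complexes III and IV and all 16 of 16 of ATP synthase were up-regulated, with medians of 0.60, 0.60 and 0.48. The changes were modest, led by COX6A2 (1.10 ± 0.096), the muscle isoform of a complex IV subunit, NDUFS7 (1.04 ± 0.091) and NDUFS1 (0.95 ± 0.11) of complex I. The tricarboxylic acid cycle list also holds genes of the malate-aspartate shuttle (GOT1, GOT2, MDH1, SLC25A11 and SLC25A12). In it 19 of 20 genes rose (median 0.51), OGDH (0.89 ± 0.090), IDH3A (0.94 ± 0.10) and SUCLA2 (0.88 ± 0.10) among them. IDH2, the NADP-dependent isocitrate dehydrogenase, fell (-0.40 ± 0.096). These counts depended on scaling more than the glycolytic ones. With library totals alone 18 complex I, 12 complex III and IV and 6 ATP synthase genes and 6 of the cycle list were called up, against 13 of glycolysis.

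Of the 13 protein genes of the mitochondrial genome 5 were up-regulated and 8 were not called, with a median of 0.19. COX1, a catalytic subunit of complex IV, ran from 20278 through a median of 47425 to 66299.8 CPM at EL and from 54792 through 71799.5 to 85807 CPM at ML (log2 fold change 0.61 ± 0.12, adjusted p = 2.57e-04). With library totals alone 0 were called up and 6 down.

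**Figure D3:**
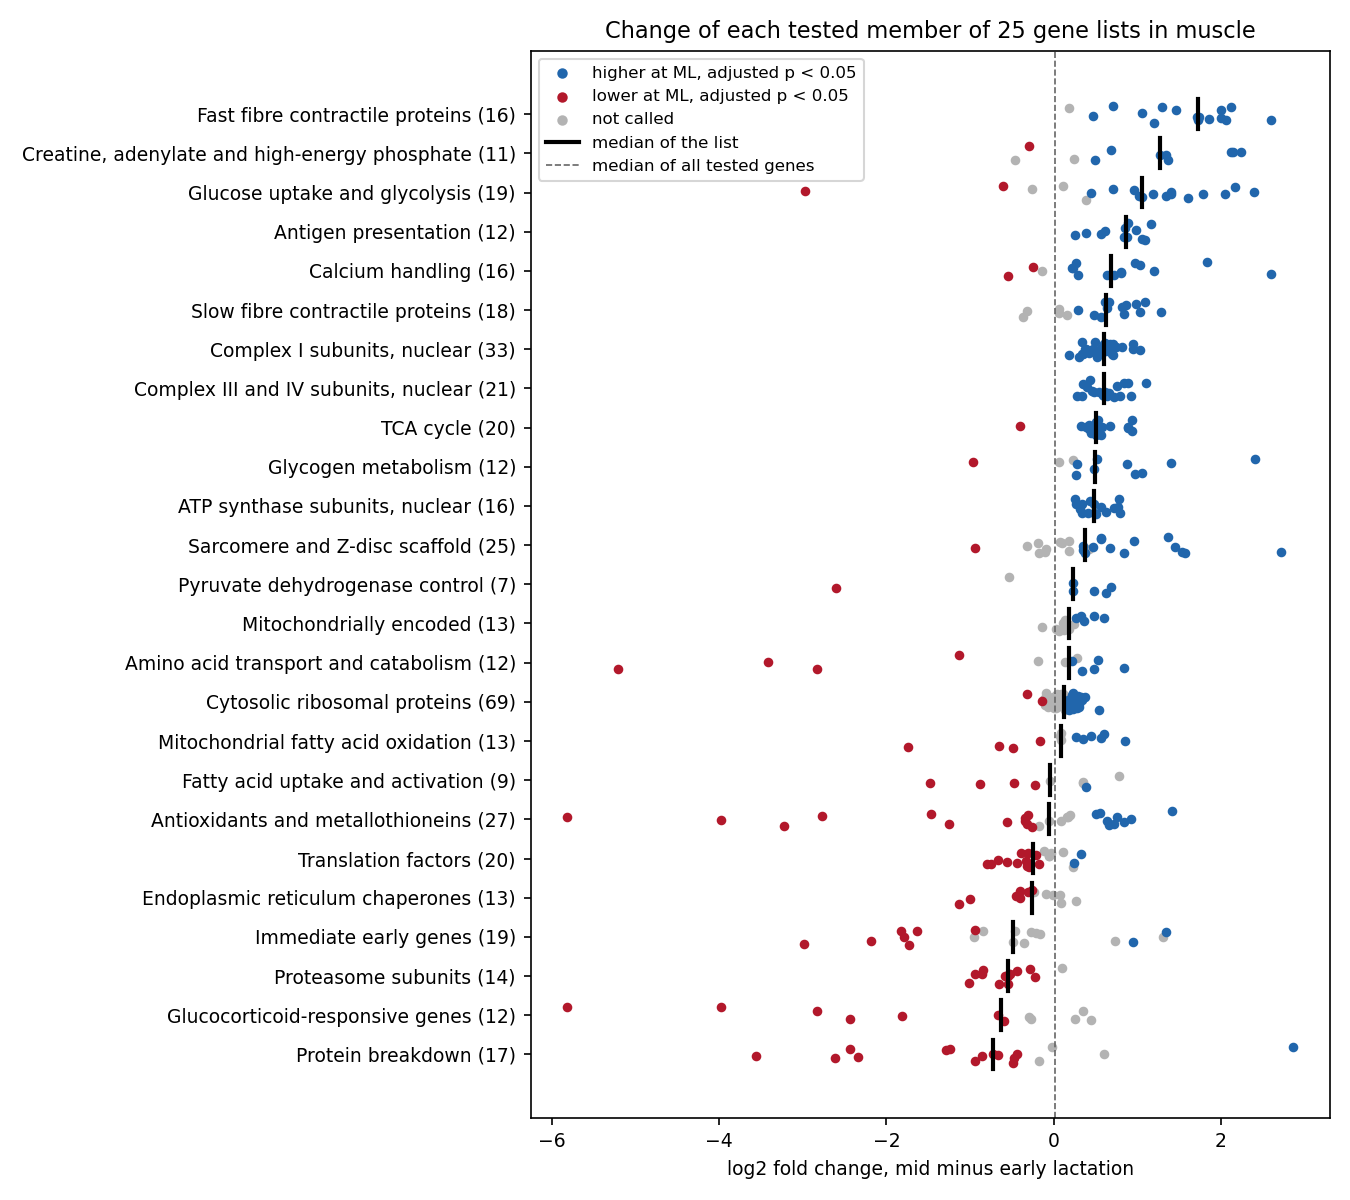
Log2 fold change (ML minus EL, x axis) of the tested members of 25 gene lists, 1 point per gene and 1 row per list with the number tested in brackets, coloured by call, with a black bar at the median of the list and a dashed line at the median of all tested genes. The fast fibre and glycolysis medians are 1.72 and 1.06, all points of complex I lie to the right of the dashed line, and the proteasome and protein breakdown medians are -0.55 and -0.72.

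Contractile protein genes were up-regulated at ML, those of fast fibres nearly without exception. ACTA1, skeletal muscle alpha-actin, lay between 1481 and 46604 CPM at EL (median 7705) and between 37990.3 and 78958 CPM at ML (median 55884). It rose in all 16 cows, 6.57-fold in the fit (log2 fold change 2.72 ± 0.31, adjusted p = 6.52e-07), although the highest EL value was above the lowest ML value. TPM1, a tropomyosin, lay between 646 and 6422 CPM at EL (median 2523) and between 7194 and 14294 CPM at ML (median 10307), without overlap (log2 fold change 2.12 ± 0.20, adjusted p = 4.36e-08). MYH1, the myosin heavy chain of fast glycolytic fibres, ran from 2578 through a median of 23259 to 63512 CPM at EL and from 48210.5 through 73399 to 108886 CPM at ML (log2 fold change 1.86 ± 0.29, adjusted p = 1.80e-05). MYH2, that of fast oxidative fibres, ran from 592 through a median of 7883 to 27020.5 CPM at EL and from 17686 through 26305 to 55369.7 CPM at ML (log2 fold change 1.73 ± 0.26, adjusted p = 1.24e-05). The fast light chains MYL1 (2.06 ± 0.19) and MYLPF (2.0 ± 0.15) and the fast troponins TNNT3 (1.73 ± 0.20), TNNI2 (1.71 ± 0.20) and TNNC2 (1.06 ± 0.11) rose with them. In all 15 of 16 tested genes of fast fibres were up-regulated (median 1.72), as were 14 with library totals alone.

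Genes of slow fibres were also mostly up-regulated. MYH7, the slow myosin heavy chain, was up-regulated by 0.66 ± 0.14, and the slow light chains MYL2 (0.99 ± 0.13) and MYL3 (1.28 ± 0.16), the slow troponins TNNT1 (0.87 ± 0.12), TNNI1 (0.62 ± 0.12) and TNNC1 (0.48 ± 0.11) and myoglobin, MB (0.57 ± 0.12), also rose. Of 18 tested members 13 were up-regulated, with a median of 0.63, and with library totals alone 6 were called up and 3 down. The difference between the fast and the slow list was not tested.

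Structural genes of the sarcomere changed unevenly, with 14 of 25 up-regulated and 1 down-regulated (median 0.37). The M-line protein MYOM2 (1.57 ± 0.20) and the Z-disc proteins PDLIM7 (1.54 ± 0.26) and LDB3 (1.45 ± 0.18) rose by more than TTN, the giant spring titin (0.47 ± 0.10). CMYA1, a repair protein of the Z-disc, was the gene that fell (log2 fold change -0.94 ± 0.39, adjusted p = 0.0444). It lay between 1718 and 3018 CPM in the EL libraries of the 4 cows apart and between 157 and 713 in the others, and without those cows 0 sarcomere genes were called down. DES, the intermediate filament desmin, lay between 6125 and 10963 CPM at EL (median 8238) and between 6213 and 10382 CPM at ML (median 7617), with a difference whose sign turned with upper-quartile factors (log2 fold change -0.060 ± 0.085, adjusted p = 0.552). With library totals alone 7 sarcomere genes were called up and 8 down.

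Calcium handling genes rose in 13 of 16 cases and fell in 2. CASQ1, the calcium-binding protein of the fast sarcoplasmic reticulum, lay between 140.1 and 2020.0 CPM at EL (median 542) and between 2188 and 5192 CPM at ML (median 3965), without overlap (log2 fold change 2.60 ± 0.23, adjusted p = 3.40e-08). The calcium channel subunit CACNG1 (1.83 ± 0.18), the fast pump ATP2A1 (1.19 ± 0.15) and the pump inhibitor PLN (0.64 ± 0.16) rose, and with library totals alone 8 of the list were called up and 5 down. The members that fell were CALM (-0.25 ± 0.087), a calmodulin, and MICU3 (-0.55 ± 0.17), a regulator of the mitochondrial calcium uniporter.

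Regulators of muscle growth and fibre identity moved in both directions. MSTN ran from 0.0439 through a median of 1.77 to 28.4 CPM at EL and from 4.5 through 15.2 to 44.4 CPM at ML. The gene was close to 0 in some EL libraries, rose in all 16 cows (log2 fold change 2.87 ± 0.54, adjusted p = 1.99e-04) and was 1 of 12 named genes with the largest rise. MYOG, which drives the differentiation of myoblasts and responds to loss of nerve input, ran from 1.43 through a median of 9.8 to 43.1 CPM at EL and from 13.4 through 26.7 to 52.9 CPM at ML (log2 fold change 1.69 ± 0.33, adjusted p = 3.00e-04). MYF6, the related factor of mature fibres, fell, with a median of 174 CPM at EL and 73 CPM at ML (log2 fold change -1.55 ± 0.27, adjusted p = 8.16e-05). Components of the neuromuscular junction were split, with the acetylcholine receptor subunit CHRND up-regulated (1.58 ± 0.29) and the kinase MUSK down-regulated (-0.88 ± 0.35). Of 11 tested genes of developing or regenerating muscle 6 rose and 2 fell.

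Of 8 tested genes of insulin and insulin-like growth factor signalling 4 rose and 3 fell. The growth factor IGF2 (0.56 ± 0.077) and the binding proteins IGFBP4 (0.73 ± 0.14) and IGFBP7 (0.43 ± 0.085) were up-regulated. SOCS2, a target of growth hormone signalling that also restrains it, rose (0.88 ± 0.20), whereas CISH, of the same family, fell (-0.91 ± 0.38). PIK3R1 and PIK3IP1 (-0.89 ± 0.24), a membrane inhibitor of phosphoinositide 3-kinase, fell. Without the 4 cows apart 1 member was called down in place of 3, over the fits without 1 cow 1 to 3 were, and with library totals alone 1 rose and 3 fell.

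Of 12 tested genes of fatty acid and triacylglycerol synthesis 6 rose and 2 fell, and with library totals alone 4 rose and 4 fell. SCD, the stearoyl-CoA desaturase, ran from 3.78 through a median of 15.7 to 41.2 CPM at EL and from 38 through 53.2 to 135 CPM at ML (log2 fold change 1.91 ± 0.21, adjusted p = 5.65e-07). SCD5 (0.90 ± 0.16), FADS2 (0.96 ± 0.11) and FADS3 (0.65 ± 0.12) rose as well, and MID1IP1, a regulator of acetyl-CoA carboxylase, fell (-1.04 ± 0.20). The genes that rose included desaturases and other enzymes of the list. LPIN1, described above, had the largest fall of the list (-2.49). The summed level of the list was lower at ML in 14 of 16 cows, with medians of 914 CPM at EL and 683 at ML.

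Ribosomal protein genes stayed close to the median of all genes, with 29 of 69 up-regulated, 2 down-regulated and a median of 0.13. Their direction followed the scaling, being 0 up and 53 down with library totals alone and 46 up and 0 down with upper-quartile factors. Translation factors fell more than they rose, 12 against 2 of 20, including the initiation factors EIF4A2 (-0.80 ± 0.090) and EIF4B (-0.67 ± 0.077) and the elongation factor EEF2 (-0.76 ± 0.082). Among chaperones of the endoplasmic reticulum 7 of 13 fell and 0 rose. P4HB, a protein disulfide isomerase, lay between 231 and 528 CPM at EL (median 301) and between 127 and 199 CPM at ML (median 147), without overlap (log2 fold change -1.14 ± 0.093, adjusted p = 8.75e-09). Heat shock genes were split between 3 up, 6 down and 5 not called, with DNAJB5 (1.40 ± 0.31) highest and FKBP4 (-0.61 ± 0.080) lowest among those called.

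The 12 tested genes of antigen presentation were all up-regulated (median 0.86), of which 7 were also called up with library totals alone. CD74, the invariant chain that guides class II molecules, lay between 72.9 and 170.5 CPM at EL (median 109.8) and between 181 and 381 CPM at ML (median 258), without overlap (log2 fold change 1.16 ± 0.097, adjusted p = 1.10e-08). The class II chains BOLA-DQA1 (1.10 ± 0.12), BOLA-DQA2 (1.05 ± 0.17) and BOLA-DMA (0.99 ± 0.096) rose with it. Some class II genes, such as those of the DQA chains, are near-identical copies, so counts may be divided among these copies in ways that differ from their true levels. Without the cow block 6 of these genes were called up. Interferon-stimulated genes did not follow, with 4 up, 2 down and 5 not called, MX1 (-0.55 ± 0.23) and ISG15 (-0.77 ± 0.28) falling and GBP5 (0.79 ± 0.28) rising. With library totals alone 1 was called up and 5 down, and over the fits without 1 cow 1 to 3 were called down. Of 10 tested acute-phase and inflammatory genes 2 rose, IL1B (3.35 ± 0.34) and C3 (0.96 ± 0.33), 1 fell, LTF (-0.86 ± 0.26), and haptoglobin, HP, did not pass (log2 fold change -1.52 ± 0.66, adjusted p = 0.0532). The number that fell was unstable, 3 in DESeq2, 4 with library totals alone, 0 without the 4 cows apart, 0 without cow 419 or cow 426 and 3 without cow 996, and HP was called lower in DESeq2, with library totals alone and without cow 996 or cow 3397. IL1B was low throughout, between 0 and 2.27 CPM at EL (median 0.265) and between 0.96 and 7.68 CPM at ML (median 4.08). Of 20 complement and coagulation genes 4 rose and 0 fell, but with library totals alone 2 rose and 7 fell.

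Matrix genes rose in 7 of 12 cases and fell in 1, and with library totals alone 4 rose and 4 fell. COL1A1, a chain of fibrillar collagen, ran from 5.74 through a median of 18.6 to 44.6 CPM at EL and from 24.4 through 42.7 to 116 CPM at ML (log2 fold change 1.40 ± 0.31, adjusted p = 8.27e-04), and the proteoglycan LUM (1.2 ± 0.25) and fibronectin, FN1 (0.91 ± 0.17), rose with it, while LOXL4, a crosslinking enzyme, fell (-1.19 ± 0.35). The smaller lists of cell cycle (3 up, 3 down of 6), hypoxia and vessel growth (3 up, 1 down of 8) and the circadian clock (2 up, 2 down of 5) had calls in both directions, and with library totals alone they gave 1 up and 3 down, 0 and 3, and 0 and 3.

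Markers of other cell types were read from the same libraries, and in a biopsy fewer cells of a type and less RNA per cell cannot be told apart. Sums are over the members found, tested or not. Markers of fibroblasts rose in 6 of 8 tested cases, their summed level lying between 80.0 and 316 CPM at EL and between 213 and 409 at ML, higher in 12 of 16 cows. Smooth muscle and pericyte markers rose in 4 of 6 cases, and with library totals alone 2 rose and 2 fell. Their sum ran from 6952 to 11821 CPM at EL (median 9267) and from 7101 to 11370.4 at ML (median 8725). It was higher at ML in only 7 of 16 cows, and most of it was DES, also a muscle fibre gene. Adipocyte markers rose in 2 of 6, ADIPOQ (1.44 ± 0.39) and GPD1, which is also counted above as a gene of glycolysis, with sums of 76.9 to 572 CPM at EL and 653 to 1350.2 at ML. GPD1 had the largest rise of the 6 (2.17) and is part of the sum, so the sum is not a reading of adipocytes alone. In DESeq2, with upper-quartile factors and without cow 3397 or cow 3434, 4 of them were called higher. Endothelial markers rose in 3 of 8 (144 to 257 and 131 to 355 CPM), but the sum was higher at ML in only 7 of 16 cows, and with library totals alone 0 rose and 2 fell. Of 9 satellite cell markers only 2 had a symbol here, VCAM1 (0.79 ± 0.19) and NCAM1 (1.41 ± 0.25), and both rose. Their sum lay between 2.70 and 36.7 CPM at EL and between 7.72 and 34.7 at ML. The single tendon marker tested, KERA (1.31 ± 0.36), rose from a low level. Tendon markers summed to between 0.049 and 1.10 CPM at EL and between 0.251 and 2.22 at ML. All 3 of 3 skin markers rose, with a sum between 1.06 and 5.57 CPM at EL and between 4.04 and 22.5 at ML. None of 3 Schwann cell markers passed (edgeR, sum 22.3 to 179.8 and 22.7 to 234 CPM).

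Blood cell markers were low. Of 10 erythroid markers 3 were found in the tables, none had enough counts to be tested, and their sum reached at most 3.82 CPM at EL and 1.45 at ML. Both tested neutrophil markers fell, S100A12 (-1.12 ± 0.43) and LTF, with sums of 0.868 to 17.2 CPM at EL and 0.201 to 6.24 at ML, and without the 4 cows apart LTF was not called and S100A12 was too low to be tested. Of 12 neutrophil markers found 4 (CATHL1, CATHL2, CATHL3 and CTSG) had no count in any of the 32 libraries. Of 5 macrophage markers 1 rose, CD5L (0.78 ± 0.30), and 1 fell, SIRPA (-0.59 ± 0.16). The sum was 16.7 to 89.5 CPM at EL and 11.9 to 31.8 at ML, and with library totals alone 0 rose and 4 fell. Of 6 B cell markers 1 rose and 1 fell (28.2 to 124 and 39 to 98.8 CPM), or 0 and 3 with library totals alone, and LAT, the only T cell marker tested, did not pass (log2 fold change 0.44 ± 0.30, adjusted p = 0.201) but was called higher without cow 3847 and without the 4 cows apart. The part that shifts in these cell types have in the antigen presentation and matrix results was not tested. ALB, the serum protein made by liver, had the largest rise of all named genes by the rule (log2 fold change 3.83 ± 0.84, adjusted p = 7.67e-04). Its level was low and uneven, between 0 and 25.7 CPM at EL (median 0.367) and between 0.129 and 115 CPM at ML (median 6.49), and the 15 liver-secreted genes summed to between 1.49 and 55 CPM at EL and between 2.91 and 238 at ML.

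The levels at LP show where both time-points stood relative to late pregnancy. EL and ML were each compared with LP in a fit of all 48 muscle libraries, and both comparisons share libraries with the one above, so only the values are set side by side. EL differed from LP in 7176 of 12304 genes tested (58.3%), 654 of them by more than 1 on the log2 scale, and ML differed from LP in 1120 genes (9.1%), 87 of them by more than 1. For TRIM63 the medians at LP, EL and ML were 142, 966 and 75.2 CPM, with a change of 2.79 ± 0.27 (adjusted p = 8.93e-10) from LP to EL and of -0.89 ± 0.25 (adjusted p = 0.0238) from LP to ML. For ACTA1 they were 42505, 7508 and 53749 CPM, with changes of -2.14 ± 0.25 (adjusted p = 1.11e-08) and 0.48 ± 0.23 (adjusted p = 0.202). For SLC7A8 they were 19.8, 271 and 5.61 CPM, with changes of 3.66 ± 0.38 (adjusted p = 2.48e-09) and -1.54 ± 0.37 (adjusted p = 0.00775). In these genes the EL level stood away from both other time-points, and for TRIM63 and SLC7A8 the ML level was also below that at LP.

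PFKFB3, SLC2A4 and ALB differed from this picture. PFKFB3 had medians of 1134, 1751 and 202 CPM, with changes of 0.32 ± 0.36 (adjusted p = 0.463) from LP to EL and -2.49 ± 0.40 (adjusted p = 1.52e-04) from LP to ML, so that its ML level was the one that stood away. SLC2A4 had medians of 87.9, 56.6 and 152 CPM, with changes of -0.36 ± 0.20 (adjusted p = 0.123) and 0.76 ± 0.20 (adjusted p = 0.0114). ALB likewise stood away at ML, with changes of 0.67 ± 0.93 (adjusted p = 0.554) and 4.36 ± 0.82 (adjusted p = 8.52e-04). PDK4 instead resembled TRIM63, highest at EL and below LP at ML, with medians of 1583, 3760.4 and 733 CPM. Its changes were 1.65 ± 0.25 (adjusted p = 1.65e-06) and -0.96 ± 0.25 (adjusted p = 0.012). Among lists, the glycolytic genes were 0 up and 13 down from LP to EL and 1 up and 1 down from LP to ML. The fast fibre genes were 0 up and 15 down and then 2 up and 0 down, the complex I genes 0 up and 32 down and then 0 up and 0 down, and the proteasome genes 13 up and 0 down and then 0 up and 0 down.

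**Figure D4:**
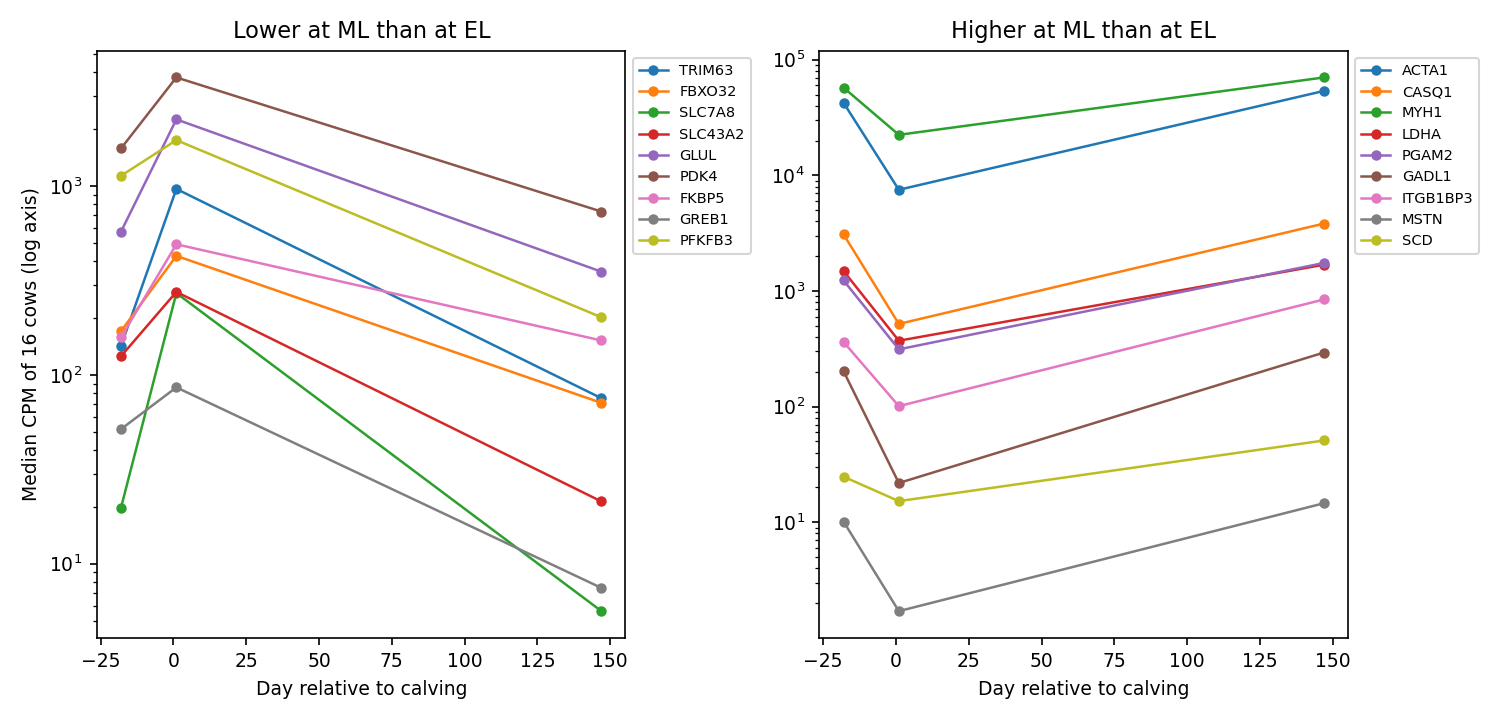
Median CPM over 16 cows (log axis, no error drawn) of named genes in muscle against the day relative to calving, for genes lower at ML than at EL (left) and higher (right), with straight lines joining the 3 medians of a gene. TRIM63 and PDK4 peak at EL, while ACTA1 and LDHA have their lowest medians at EL.

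The change from EL to ML was compared between Fert+ and Fert- cows by the interaction of genotype and time-point. No gene passed in edgeR (0.0% of 12029), although 935 had an unadjusted p below 0.05, and the smallest adjusted p was 0.245. DESeq2 called 26 genes, 9 with a more positive and 17 with a more negative change in Fert+ cows. The 3 genes with the smallest p were SMAD7, an inhibitor of transforming growth factor beta signalling (difference -2.17 ± 0.41 (adjusted p = 0.245)), the gene CMSS1 (1.32 ± 0.27 (adjusted p = 0.245)) and SHISA5 (-1.2 ± 0.25 (adjusted p = 0.245)). Fitted alone, the 8 Fert+ cows gave 2644 genes up and 2743 down and the 8 Fert- cows 2863 up and 2705 down. For genes with large changes the differences between genotypes had wide errors: they were -0.35 ± 0.53 (adjusted p = 0.931) for TRIM63, -1.35 ± 0.50 (adjusted p = 0.525) for ACTA1, -2.76 ± 0.99 (adjusted p = 0.518) for MT2 and -2.34 ± 0.65 (adjusted p = 0.374) for PFKFB3, on the log2 scale as Fert+ minus Fert-. The 4 cows apart on the second component were all Fert+, and their part in these differences was not tested.

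Liver libraries of the same 16 cows and time-points allowed a test of whether a change was of another size in muscle. The interaction of tissue and time-point was called in 5153 of 14009 genes (36.8%), the change being more positive in muscle for 3140 and more negative for 2013. With scaling within each tissue these became 2449 and 2671, without a gene filter 2222 and 2517, and with RLE factors 2828 and 2309, so that the direction of the split depends on processing. In liver itself 5396 genes (38.5%) differed between EL and ML, 2750 up and 2646 down at ML.

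PDK4 changed by 0.26 ± 0.25 (adjusted p = 0.417) in liver, and the difference between tissues was -2.79 ± 0.35 (adjusted p = 1.47e-07). LPIN1 changed by 0.15 ± 0.23 (adjusted p = 0.638) in liver, with a difference of -2.56 ± 0.32 (adjusted p = 1.43e-07). SLC7A8 changed by 0.15 ± 0.38 (adjusted p = 0.789) in liver, with a difference of -5.29 ± 0.50 (adjusted p = 7.69e-10), and HMOX1 by -0.44 ± 0.17 (adjusted p = 0.0457), with a difference of -2.72 ± 0.25 (adjusted p = 5.27e-10). LDHA moved in opposite directions, -1.37 ± 0.21 (adjusted p = 6.59e-06) in liver, with a difference of 3.49 ± 0.30 (adjusted p = 7.41e-11), as did FBXO32, 0.66 ± 0.21 (adjusted p = 0.0135) in liver, with a difference of -3.20 ± 0.28 (adjusted p = 1.85e-10). Changes that did not differ by the test included FKBP5, -1.42 ± 0.27 (adjusted p = 1.58e-04) in liver, with a difference of -0.33 ± 0.38 (adjusted p = 0.534), and SCD, 2.89 ± 0.42 (adjusted p = 4.16e-06) in liver, with a difference of -0.90 ± 0.54 (adjusted p = 0.197). CD74 rose in both tissues, by 0.76 ± 0.12 (adjusted p = 1.81e-05) in liver, and by more in muscle (difference 0.47 ± 0.17 (adjusted p = 0.0326)). By list the medians in muscle and liver are shown in the plot of list medians by tissue, and differences between lists were not tested. In liver the antigen presentation genes were 12 up and 0 down of 12, the complex I genes 0 up and 5 down of 33 and the proteasome genes 0 up and 4 down of 14. Of all 14009 genes 2750 rose and 2646 fell in liver, so the complex I falls are no more frequent than those over all genes. TRIM63 and ACTA1 are muscle genes with few counts in liver, and their differences between tissues did not pass (adjusted p = 0.294 and 0.148).

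**Figure D5:**
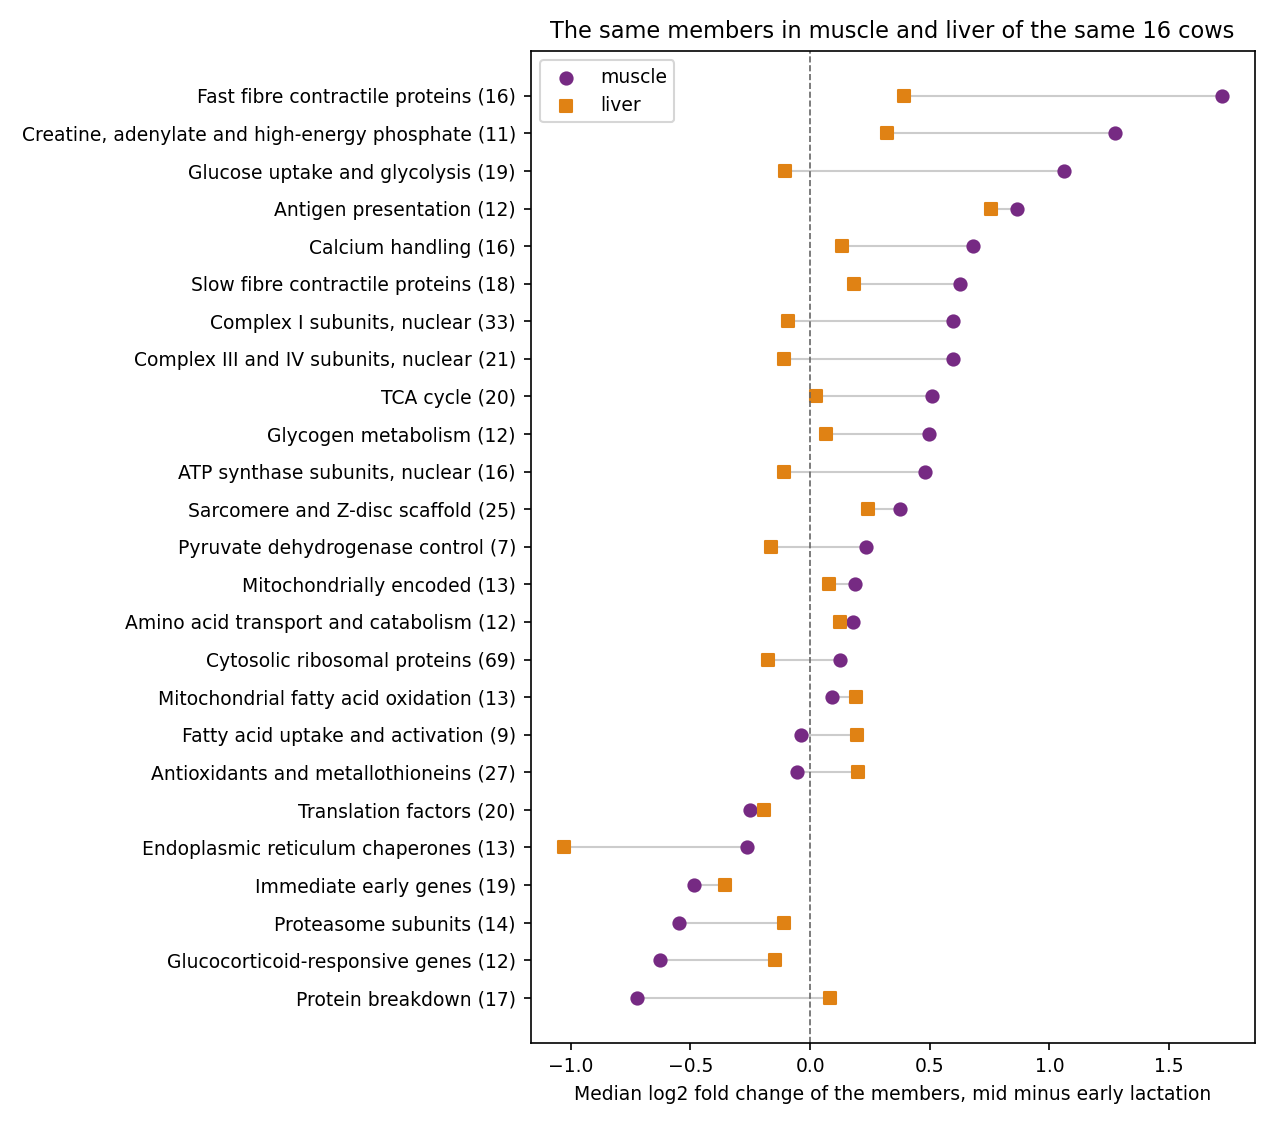
Median log2 fold change (ML minus EL, x axis) of the members of 25 gene lists in muscle (circles) and in liver (squares) of the same 16 cows, with the number of members tested in muscle in brackets and a dashed line at 0. The glycolysis medians are 1.06 in muscle and -0.10 in liver, those of antigen presentation 0.86 and 0.76, and those of the endoplasmic reticulum chaperones -0.26 and -1.03.

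Of 35 tested genes that the study discusses for muscle 15 rose, 7 fell and 13 were not called between EL and ML. The study chose these genes on the same samples, so the count is not independent of the data, and with library totals alone 11 rose and 11 fell. Beside members already described, the monoamine oxidase MAOA (-1.75 ± 0.20), the acyl-CoA synthetase ACSL4 (-1.88 ± 0.22) and the fibrinogen chain FGB (1.87 ± 0.42) changed by more than 1 on the log2 scale, as did ECHDC2 (1.06 ± 0.13), and the mitochondrial carrier SLC25A25 rose by 0.94 ± 0.33. FGB is 1 of the liver-secreted genes, which together had medians of only 3.55 CPM at EL and 15.2 at ML in muscle. FABP4, the fatty acid-binding protein of adipocytes, was among those not called (log2 fold change 0.78 ± 0.35, adjusted p = 0.0596).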

How the data were processed

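Per the labels and the methods of the study, paired reads were trimmed, aligned with STAR to Ensembl70 UMD3.1, and counted per gene with featureCounts by the authors, and each deposited file holds raw, unnormalized counts of a single sample. The 96 count columns of the combined tables carry no sample names and were not used. Whether counting used strand is not given in the sources used here.

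Genes were kept by edgeR's filterByExpr on time-point. Counts were scaled by TMM and fitted with the robust quasi-likelihood test of edgeR 4.0.16 (R 4.3.3), with cow and time-point as terms, two-sided, with Benjamini-Hochberg adjustment and a threshold of 0.05. The genotype and tissue comparisons used interaction terms, and LP entered in a fit of 48 libraries. The test was checked on simulated counts before use. Cow was a term because both libraries of a pair come from 1 animal. Their deviations from the means of each time-point and genotype correlated at 0.104 to 0.522 in all 16 pairs (median 0.217). Between EL and ML libraries of different cows of the same genotype the median was -0.023. Replicates of a group differed by more than sampling noise. In 13 of the 96 libraries, 4 of them used here (both time-points of cows 164 and 419), 19 genes had counts that were near 0 elsewhere, so results were also computed without these cows. Alternatives covered the cow term, scaling, gene filter, test (DESeq2 1.42.0, limma 3.58.1 voom) and single cows.

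Symbols came from the supplementary workbooks of the study, which pair 2160 of 24616 identifiers, so most called genes are unnamed and lists are incomplete. Named genes were, among those with a symbol, a mean of at least 5 CPM, adjusted p below 0.05 and 1 direction in at least 15 of 16 cows, the 12 with the largest change each way, then the 5 with the smallest adjusted p, up to 4 members called each way and the 2 most abundant of each list, every member of the fibre, pyruvate dehydrogenase and study lists, and the 3 genes with the smallest p of each interaction. Those of the tissue interaction had no symbol and are not named, and some other genes that the rule picks are not reported here. The comparison, lists and markers were chosen with earlier results of these data known. Depth and precision: with 15463987 to 22018740 counts a library, genes below a few CPM rest on few reads.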

Additional observations from a re-analysis of the deposited data

Results flagged for a closer look

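Within each genotype (8 cows) the change from EL to ML of each named gene, on the log2(CPM + 1) scale, was searched for a cow far from the other 7, as were library totals and shares. Of 374 such groups 26 held one, and chance alone gives about 1 in 20. The Fert- cow 1179 stood at the high end for CASQ1 (4.93, next 3.39), DHDH (3.63, next 2.76), ITGB1BP3 (5.91, next 3.55), LDB3 (3.33, next 1.90), MYH2 (5.25, next 2.60), MYL1 (4.08, next 2.68), MYOM2 (3.61, next 2.24) and TNNI2 (3.77, next 2.46), mostly genes of the contractile apparatus. The Fert- cow 996 stood at the low end for COX1 (-0.15, next 0.40) and MYL2 (0.10, next 1.12) and at the high end for haptoglobin, HP (4.29, next -0.059). The Fert+ cow 430 stood at the low end for ITGB1BP3 (0.49, next 2.60), ECHDC2 (-0.25, next 0.62) and OGDH (0.33, next 0.80), and the Fert+ cow 3847 apart for FBXO32 (0.050, next -2.01) and HP (-2.66, next -0.71). The Fert+ cow 3445 stood apart for IGFBP7 (1.07, next 0.41) and SIRPA (-0.92, next -0.35), and the Fert+ cow 756 for PPARGC1A (-3.51, next -0.56) and CD5L (0.92, next 0.43). Single flags were FGB in cow 33 (3.29, next 1.49), ISG15 in cow 426 (-1.76, next -0.58), MAOA in cow 3434 (-0.15, next -1.17), MT3 in cow 3397 (1.72, next 0.52), NR4A2 in cow 982 (-1.44, next 0.19), and the share of the 10 most abundant genes at ML in cow 164 (33.4%, next 31.5%).

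The change differed between muscle and liver in 5153 genes. Among named genes 15 rose in 1 tissue and fell in the other with both changes called, and the tissue difference (muscle minus liver, log2) passed the test. Those higher at ML in muscle and lower in liver were LDHA (difference 3.49), RXRG (4.03), FGB (3.0), ASNS (2.66), ALDOA (1.55), IDH3A (1.54), SUCLA2 (1.52), OGDH (1.38) and MFN2 (0.57). FGB is 1 of the 15 liver-secreted genes, whose sum in muscle was low, with medians of 3.55 CPM at EL and 15.2 at ML. Those lower at ML in muscle and higher in liver were FBXO32 (-3.20), GABARAPL1 (-2.80), ACSL4 (-2.34), PIK3IP1 (-1.89), LTF (-1.50) and PFKFB4 (-1.03). The differences of SLC7A8 (-5.29), PDK4 (-2.79), HMOX1 (-2.72), LPIN1 (-2.56) and CD74 (0.47) passed as well without a called change in opposite directions.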

How the results depend on the processing

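The 7522 calls between EL and ML stayed within 1.5 times under every alternative run, and directions were near balance except with library totals alone (1157 up, 7412 down) and upper-quartile factors (4749 up, 2861 down). Without the cow block (no pairing) 7116 genes were called, and leaving out single cows gave 7182 to 7506 calls, with 3581 to 3789 up and 3583 to 3783 down. No gene differed between genotypes in edgeR, against 26 in DESeq2 (9 up, 17 down) and 0 to 2 without single cows (0 to 1 in each direction), the 2 calls coming without cow 1000. The tissue comparison gave 4842 calls without the block and pairing. Without every cow that had a library with most of the 19 genes at EL or ML, it gave 3927 calls of 13932 genes. Of these, 2402 were more positive in muscle and 1525 more negative. Among 181 named genes 169 kept direction and side of the threshold without the block, 151 with library totals alone and 169 with upper-quartile factors. The number was 176 without a gene filter, 178 in DESeq2, 180 in limma-voom and 180 with RLE factors. Of 179 tested, 171 kept both without the 2 cows whose muscle libraries had counts for most of the 19 genes. Without the 4 cows apart on the second component 166 of 179 did, an alternative chosen after seeing the data. The log2 fold change turned sign without the block for HP (0.51) and PPARGC1A (-0.75), with library totals alone for LPL (-0.036), MFN2 (-0.13) and PPARGC1A (-0.22), and with upper-quartile factors for DES (0.045), of which LPL and MFN2 were called in the report. The cause was not tested. Depth limits genes whose lowest EL libraries had under 1 CPM, among them MSTN, MT1A, IL1B, ALB, ATP1A4, KERA, LTF and S100A12.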

Other observations

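Along the second component of the 32 libraries the 4 EL libraries apart (Fert+ cows 430, 756, 782 and 3847) held higher levels of a group of stress-responsive genes, chosen here for their weight on that component, so the values are a description only. RCAN1, an inhibitor of calcineurin, lay between 559 and 1840.2 CPM in these 4 libraries, between 37.6 and 279 in the other EL libraries and between 58.6 and 181 at ML. CMYA1 lay between 1718 and 3018, 157 and 713, and 132 and 548 CPM in the same order. BTG2, an antiproliferative immediate early gene, lay between 32.3 and 147, 1.6 and 17.9, and 4.01 and 30.1 CPM, and TNFRSF12A, the receptor of the cytokine TWEAK, between 16.7 and 35.2, 0.636 and 11.8, and 1.94 and 15.3 CPM. None of RCAN1, BTG2 and TNFRSF12A differed between EL and ML over the 16 cows in edgeR (adjusted p = 0.577, 0.702 and 0.845).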
